A study of Mus musculus with 103 samples.

Results

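The RNA cytosine methyltransferases of the NSUN family and Trdmt1 were followed through ribosome profiling of mouse cortex. The set was listed by name as Nsun2, Nsun3, Nsun4, Nsun5, Nsun6, Nop2 and Trdmt1, and a gene was kept where its counted transcript carried that symbol in the mouse annotation. All 7 listed genes were found among the 12719 transcripts measured. The study removed Nsun2 from forebrain neurons and compared adult cortex of KO mice with that of WT mice, with 2 mice per genotype. In the KO mice the Nsun2 gene was floxed and a Camk2a-Cre transgene was present, and in the WT mice the gene was floxed and Cre was absent, so both genotypes carry the floxed allele and WT is not an unmodified strain. The methods of the study allow controls with either 1 or 2 floxed copies, and the labels do not say which the sequenced mice had. Camk2a-Cre acts in excitatory forebrain neurons, so interneurons, glia and vessel cells of the KO cortex keep an intact Nsun2. From each cortex, ribosome footprints (fragments of mRNA protected by a ribosome from RNase I) and RNA were sequenced as separate libraries.

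These enzymes attach a methyl group to carbon 5 of cytosine in RNA, giving 5-methylcytosine, by way of a cysteine that binds the base during the reaction. Nsun2 modifies the variable loop of many cytosolic tRNAs, Trdmt1 the anticodon loop of a few, and Nsun6 the acceptor end of a few others. Nsun3 acts on the methionine tRNA of mitochondria. Nsun5 and Nop2 each modify the rRNA of the large cytosolic ribosomal subunit, and Nsun4 modifies the small-subunit rRNA of mitochondria and helps to assemble the mitochondrial ribosome together with Mterf4. In tRNA the mark is known to protect against cleavage, and loss of NSUN2 in people and mice is known for impaired brain development.

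The sequence removed in the KO mice was exon 6 of Nsun2. In the counted transcript (ENSMUST00000109699, GRCm38 chr13:69612016-69634334, plus strand, 19 exons) exon 6 is coding, lies at chr13:69618106-69618190 and holds 85 bases, which leaves a remainder of 1 when divided by 3. The exon is shown because its excision by Cre defines the KO. Capitals mark the exon and lower case the 60 intronic bases on either side.
Nsun2 exon 6: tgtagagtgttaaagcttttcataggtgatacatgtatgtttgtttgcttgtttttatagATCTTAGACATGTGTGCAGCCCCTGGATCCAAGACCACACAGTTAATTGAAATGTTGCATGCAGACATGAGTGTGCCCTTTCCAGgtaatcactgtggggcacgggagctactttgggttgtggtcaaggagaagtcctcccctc
Joining exon 5 directly to exon 7 shifts the reading frame and brings a stop codon 9 bases into exon 7. The excised reading holds 182 codons before that stop, against 757 in the intact gene. The first 179 of them are codons of the gene and the rest are exon 7 bases read out of frame. The joined stretch is shown as the last 30 bases of exon 5 and the first 12 of exon 7 (chr13:69617448-69619457 with the excised part between), with the stop codon in capitals.
Nsun2 exons 5 and 7: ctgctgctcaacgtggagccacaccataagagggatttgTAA
The catalytic cysteine codon of Nsun2, codon 321, lies in exon 9 and so downstream of that stop. Exon 6 makes up 3.74% of the coding sequence, and there is 1 deposited value per transcript and library, so reads from it were not separated from the rest.

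**Figure D1:**
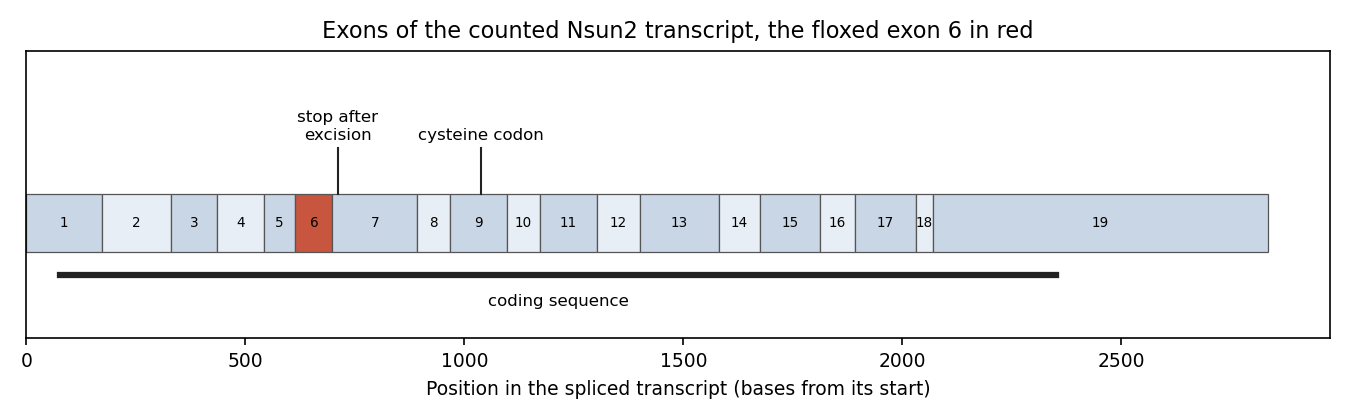
Exons of the counted Nsun2 transcript drawn to scale along the spliced RNA (horizontal axis, bases from the transcript start), with exon 6 in red and the coding sequence as a black bar. The stop codon read after excision falls just inside exon 7, upstream of cysteine codon 321 in exon 9.

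A stretch around a cysteine codon was read in the coding sequence of all 7 genes. It shows how alike the NSUN genes and Nop2 are at the nucleotide level, while that of Trdmt1 was placed by another motif. Each stretch holds 45 bases from the GRCm38 reference, 5′ to 3′ on the coding strand, with the cysteine codon in capitals. For the NSUN genes and Nop2 the codon is that of a threonine, cysteine, then serine or threonine motif, and for Trdmt1 that of a proline, proline, cysteine motif, each found once per gene.
Nsun2, chr13:69623212-69623256: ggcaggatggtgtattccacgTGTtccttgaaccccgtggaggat
Nsun3, chr16:62735346-62735390: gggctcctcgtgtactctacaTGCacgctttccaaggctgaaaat
Nsun4, chr4:116034239-116034283: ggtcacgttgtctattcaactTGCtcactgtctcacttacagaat
Nsun5, chr5:135375394-135375438: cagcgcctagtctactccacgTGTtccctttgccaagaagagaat
Nsun6, chr2:14998224-14998268: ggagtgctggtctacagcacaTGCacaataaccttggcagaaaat
Nop2, chr6:125141126-125141285, across an intron: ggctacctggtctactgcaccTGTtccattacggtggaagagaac
Trdmt1, chr2:13523491-13525655, across an intron: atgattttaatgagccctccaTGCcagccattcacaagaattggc
Between 22 (Nsun3) and 27 (Nsun5) of the 45 bases were the same as in Nsun2 in the other NSUN genes and Nop2. For Trdmt1 the count was 11. Its stretch was placed by a different motif, so that count does not compare the same site. No window of 28 bases, about the length of a footprint, in the coding sequence of any of the 7 genes occurred in a protein-coding transcript of another gene, members included. A coding read of that length from one member therefore has no exact match in another.

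Nsun2 was the one member to pass the test. Its RNA, in the deposited normalized units, was 1292 and 1119.9 in WT, against 362 and 368 in KO. Both KO values lay below both WT values, and the KO mean was 30.3% of the WT mean. On the log2(value + 1) scale the difference was -1.72 ± 0.117 (SE, n = 2 per genotype, limma adjusted p = 4.53e-05). Among all 10674 transcripts tested, 1.65% were lower in KO and 1.5% higher at an adjusted p under 0.05, and of the 6 members tested 1 was lower and 0 were higher.

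Nsun2 footprints were 130.0 and 114 in WT and 30.4 and 23.0 in KO. The genotypes did not overlap, and the KO mean was 21.8% of the WT mean. The log2 difference was -2.16 ± 0.213 (SE, limma adjusted p = 1.52e-04), the lowest of the 10674 footprint differences, while the RNA difference ranked sixth from the lowest (6 of 10674). For footprints, 0.384% of transcripts were lower and 0.206% higher, again with 1 member lower and 0 higher.

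Footprints per unit of RNA, the translational efficiency, were read as the ratio of the values in each mouse. For Nsun2 the ratio was 0.101 and 0.102 in WT and 0.0838 and 0.0624 in KO. Both KO ratios were below both WT ratios. The difference of -0.45 ± 0.228 (SE, log2 scale) did not pass (limma unadjusted p = 0.0730, adjusted p = 0.999), with a 95% interval from 0.52-fold to 1.03-fold. No transcript passed for translational efficiency, so 0% were called in either direction, and 464 of 10674 had an unadjusted p under 0.05 in limma, 4.3% of all. The same ratio tested per mouse, also in limma, called 13 lower and 5 higher, with none of the members among them.

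**Figure D2:**
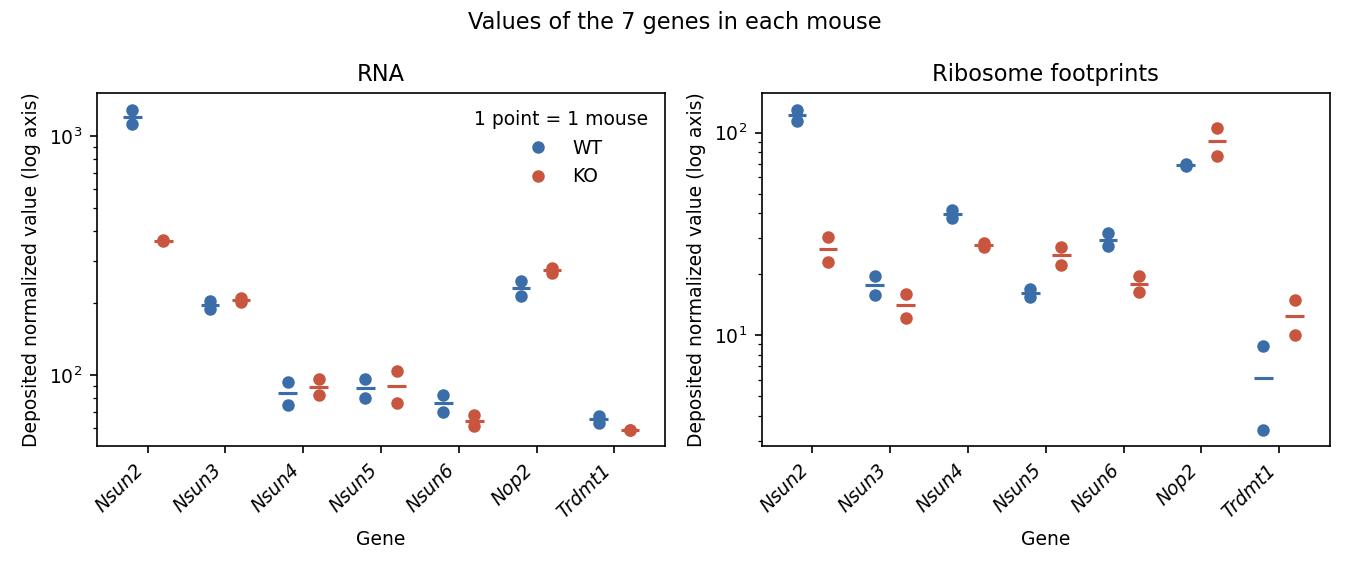
Deposited RNA (left) and ribosome footprint (right) values of the 7 genes on a log axis, with 1 point per mouse and a bar at the mean of each genotype. Nsun2 falls from 1292 and 1119.9 to 362 and 368 in RNA, while the RNA of the other genes lies close between WT and KO.

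Marker genes of cortical cell types were read in the same libraries. Summed RNA of 5 excitatory neuron markers was 43552 to 44290 in WT and 38630 to 40567 in KO, and none of the 5 passed the test. Most of that sum was Camk2a, a kinase of these neurons, whose RNA difference was -0.19 ± 0.09 (SE, limma adjusted p = 0.267), while those of the transcription factors Neurod6 and Tbr1 were 0.04 ± 0.10 and 0.12 ± 0.11 and the median of the list was -0.01. The sum of 5 inhibitory neuron markers was 5918 to 6214 in WT and 7813 to 7983 in KO. Their median RNA difference was 0.38. Pvalb, a calcium-binding protein of fast-spiking interneurons, was higher in RNA (0.76 ± 0.13, SE, limma adjusted p = 0.0149). Its footprints did not pass (0.47 ± 0.15, limma adjusted p = 0.191). The RNA of the others did not pass. Differences were 0.39 ± 0.11 for Gad1, 0.38 ± 0.10 for Gad2, 0.14 ± 0.16 for Sst and 0.08 ± 0.15 for Slc32a1.

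The astrocyte markers did not go one way. Gfap, a filament protein, was higher in RNA (0.76 ± 0.14, SE, limma adjusted p = 0.0199) and footprints (0.75 ± 0.15, adjusted p = 0.0381). The other 4 did not pass, with RNA differences of -0.38 ± 0.16 for Aldh1l1 (adjusted p = 0.201), -0.30 ± 0.16 for Slc1a3, -0.25 ± 0.16 for Aqp4 and 0.07 ± 0.17 for Gja1, so the median of the list was -0.25. The summed RNA of the 5 was 3503 to 4466 in WT and 3654 to 3912 in KO. Of the 5 microglia markers Cx3cr1 was lower in RNA (-0.73 ± 0.17, SE, limma adjusted p = 0.0420), with a list median of -0.37 and a sum of 442 to 639 in WT and 343 to 424 in KO. Cx3cr1 footprints did not pass (-0.22 ± 0.32, limma adjusted p = 0.832). The RNA of the other microglia markers did not pass. Differences were -0.53 ± 0.34 for Tmem119, -0.37 ± 0.29 for P2ry12, -0.34 ± 0.25 for Csf1r and -0.07 ± 0.41 for C1qa. The 5 oligodendrocyte markers summed to 6944 to 9591 in WT and 8192 to 8303 in KO with none past the test, and the RNA differences of the myelin genes Mag, Mog and Cnp were -0.27 ± 0.16, 0.05 ± 0.19 and 0.11 ± 0.19. The 2 endothelial markers measured were below the footprint minimum. No transcript measured was at 0 in RNA in any mouse, so the presence of the markers in RNA is no test of the cell types. In whole cortex fewer cells of a type and less RNA per cell cannot be told apart, and the part of these markers in the Nsun2 values was not tested.

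Of the other enzymes that modify tRNA, none passed the test. Nsun6 RNA was 70.2 and 82.6 in WT and 61.0 and 67.7 in KO, and its footprints were 31.7 and 27.4 in WT and 16.2 and 19.7 in KO. Both measures were lower in both KO mice. The footprint difference was -0.69 ± 0.302 (SE, limma unadjusted p = 0.0370, adjusted p = 0.355), and the RNA difference -0.24 ± 0.215 (adjusted p = 0.548). The footprint interval ran from 0.396-fold to 0.967-fold. Over all transcripts tested, 12.8% had an unadjusted footprint p under 0.05 in limma.

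Nsun3, the mitochondrial tRNA enzyme, had RNA values of 189 and 204 in WT and 202 and 209.9 in KO. Its footprints were 15.7 and 19.6 in WT and 12.1 and 16.0 in KO. The genotypes overlapped in both measures. The intervals were 0.840-fold to 1.31-fold for RNA (limma adjusted p = 0.823) and 0.470-fold to 1.38-fold for footprints (adjusted p = 0.785).

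Trdmt1 had few footprints, 8.81 and 3.39 in WT and 10.0 and 14.8 in KO. Its mean of 9.26 over the 4 mice was under the minimum of 10 that a transcript needed to enter the test, so it was left out of the main comparison. Without that minimum the footprint difference was 1.01 ± 0.505 (SE, limma adjusted p = 0.463) and the translational efficiency difference 1.15 ± 0.556 (adjusted p = 0.999). Its RNA was 67.6 and 62.7 in WT and 58.7 and 58.9 in KO. The RNA difference without the minimum was -0.14 ± 0.217 (SE, adjusted p = 0.752).

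Among the rRNA enzymes, Nsun5 and Nop2 stood higher in KO footprints and Nsun4 lower, none past the test. Nsun5 footprints were 15.4 and 16.8 in WT and 27.3 and 22.2 in KO. Its RNA was 79.8 and 96.6 in WT and 76.5 and 104 in KO. The footprint values were apart and the RNA values overlapped. The footprint difference was 0.58 ± 0.321 (SE, limma adjusted p = 0.477), with an interval from 0.933-fold to 2.41-fold, and the RNA difference 0.02 ± 0.218 (adjusted p = 0.964).

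Nop2, a nucleolar protein needed for ribosome assembly, had footprints of 69.9 and 68.6 in WT and 106 and 76.8 in KO. Its RNA was 213 and 248 in WT and 267 and 281 in KO. Both measures were higher in both KO mice, though the KO footprints differed more from each other than KO 2 did from WT. The differences were 0.38 ± 0.192 (SE, limma adjusted p = 0.445) for footprints and 0.25 ± 0.143 (adjusted p = 0.336) for RNA.

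Nsun4 footprints were 41.5 and 37.8 in WT and 28.4 and 27.1 in KO. Its RNA was 93.9 and 74.7 in WT and 96.4 and 82.4 in KO. The footprint values did not overlap and the RNA values did. The footprint difference was -0.50 ± 0.253 (SE, limma adjusted p = 0.440), with an interval from 0.488-fold to 1.03-fold, and the RNA difference 0.09 ± 0.208 (adjusted p = 0.840).

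Separate genotypes were common with 2 mice each. Over all transcripts tested, WT and KO did not overlap for 53% in RNA, 42.6% in footprints and 38.3% in translational efficiency. Of the 6 members tested the genotypes were apart for 3 in RNA, 5 in footprints and 5 in translational efficiency. The median difference over the 6 was 0.05 in RNA, -0.41 in footprints and -0.41 in translational efficiency, beside medians of 0.04, 0.00223 and -0.03 over all transcripts. These are descriptions of a list of 6, one of which is the targeted gene, and without Nsun2 the footprint median was -0.31.

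**Figure D3:**
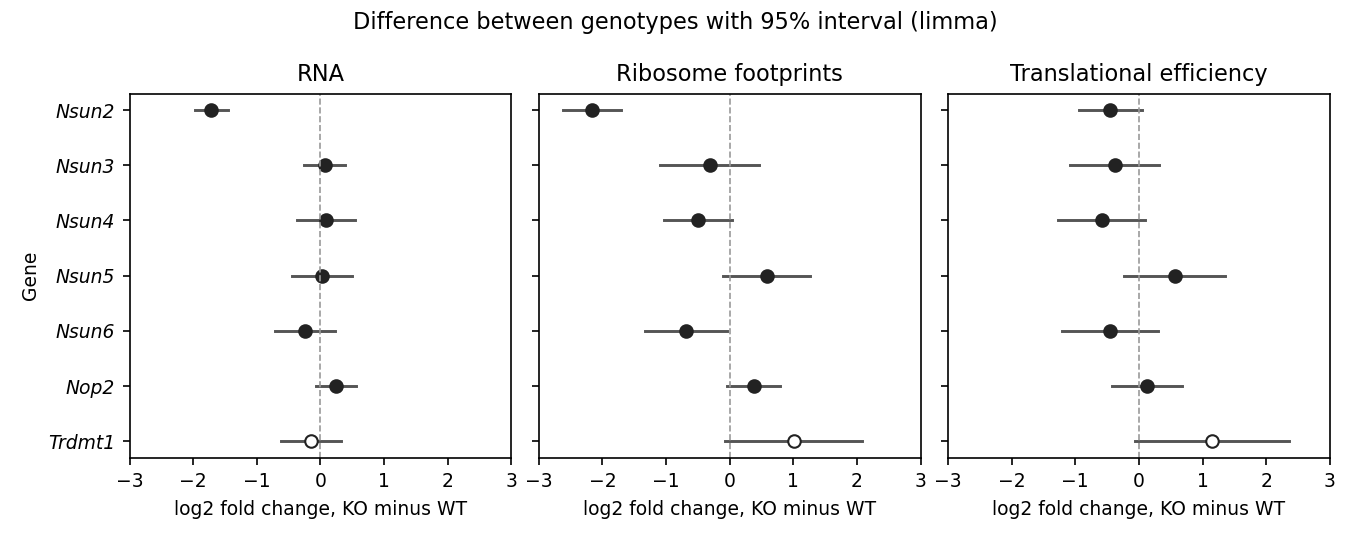
Difference between KO and WT on the log2 scale for each gene, with 95% intervals from limma, for RNA, footprints and translational efficiency. Filled points passed the footprint minimum and the open point, Trdmt1, did not. Nsun2 lies at -1.72 in RNA and -2.16 in footprints, and the intervals of the other genes reach 0 in every panel but for Nsun6 in footprints.

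Levels were compared between genes per kilobase of coding sequence. In WT RNA, Nsun2 was highest at 531 ± 53.4 (SD, n = 2), followed by Nsun3 at 188 ± 10.5 and Nop2 at 96.8 ± 10.3. Nsun4 (73.7 ± 11.9), Nsun5 (63.2 ± 8.48), Nsun6 (53.5 ± 6.16) and Trdmt1 (52.3 ± 2.75) came after, and each of these 4 overlapped its neighbour in the order. Nsun2 stood at percentile 66.9 of the transcripts tested, and the other 6 genes were between percentiles 6.9 (Trdmt1) and 35.8 (Nsun3). Per kilobase of whole transcript Nop2 came before Nsun3, whose transcript is only 27.4% coding, and Nsun5 before Nsun4.

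In WT footprints per kilobase of coding sequence the order was Nsun2 at 53.8 ± 4.84 (SD, n = 2), Nsun4 at 34.7 ± 2.28, Nop2 at 29.1 ± 0.363, Nsun6 at 20.7 ± 2.14, Nsun3 at 16.9 ± 2.68, Nsun5 at 11.5 ± 0.726 and Trdmt1 at 4.90 ± 3.08. No neighbours in this order overlapped. Nsun2 stood at percentile 54.6 and Nsun4 at percentile 40.1 of all transcripts.

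In the KO cortex Nsun2 lost the first place in both orders, in RNA only on the scale of coding length. In RNA per kilobase of coding sequence Nsun3 led at 197 ± 5.58 (SD, n = 2), before Nsun2 at 161 ± 1.71 and Nop2 at 115 ± 4.00. In footprints Nop2 led at 38.3 ± 8.58, then came Nsun4 at 24.3 ± 0.825 and Nsun5 at 17.7 ± 2.59. Nsun3 (13.5 ± 2.63), Nsun6 (12.6 ± 1.70), Nsun2 (11.7 ± 2.31) and Trdmt1 (9.97 ± 2.73) followed and each overlapped its neighbour. Per kilobase of whole transcript, Nsun2 RNA still led in KO at 129, before Nop2 at 105, and Nsun2 footprints ranked 4 of 7.

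The ratio of footprints to RNA separated the members. In WT it was 0.442 and 0.506 for Nsun4, percentile 94.2 of the transcripts tested, and 0.452 and 0.332 for Nsun6, percentile 90. For Nop2 it was 0.328 and 0.277 (percentile 82) and for Nsun5 0.192 and 0.174 (percentile 59.3). The targeted gene stood lower, at percentile 28.5. Trdmt1 (0.130 and 0.0540, percentile 24.4) and Nsun3 (0.0831 and 0.0962, percentile 23.3) stood beside it, and the median over all transcripts was 0.154.

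Coding sequence made up 27.4% of the Nsun3 transcript and 32.9% of that of Trdmt1, against 46.9% (Nsun4) to 91.7% (Nop2) in the others. Footprints come almost wholly from coding sequence, whether RNA reads outside it were counted is not given in the sources used here, and the part of this share in the order of the ratios was not tested. In KO the ratio was 0.295 and 0.329 for Nsun4, 0.266 and 0.290 for Nsun6, and 0.0601 and 0.0762 for Nsun3, each below WT in both mice. It was 0.357 and 0.213 for Nsun5 and 0.170 and 0.252 for Trdmt1, each above WT in both mice. Nop2, at 0.396 and 0.274, overlapped. Differences in translational efficiency were -0.59 ± 0.317 (SE) for Nsun4, -0.45 ± 0.348 for Nsun6, -0.38 ± 0.320 for Nsun3, 0.56 ± 0.363 for Nsun5 and 0.12 ± 0.252 for Nop2, all with a limma adjusted p of 0.999.

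**Figure D4:**
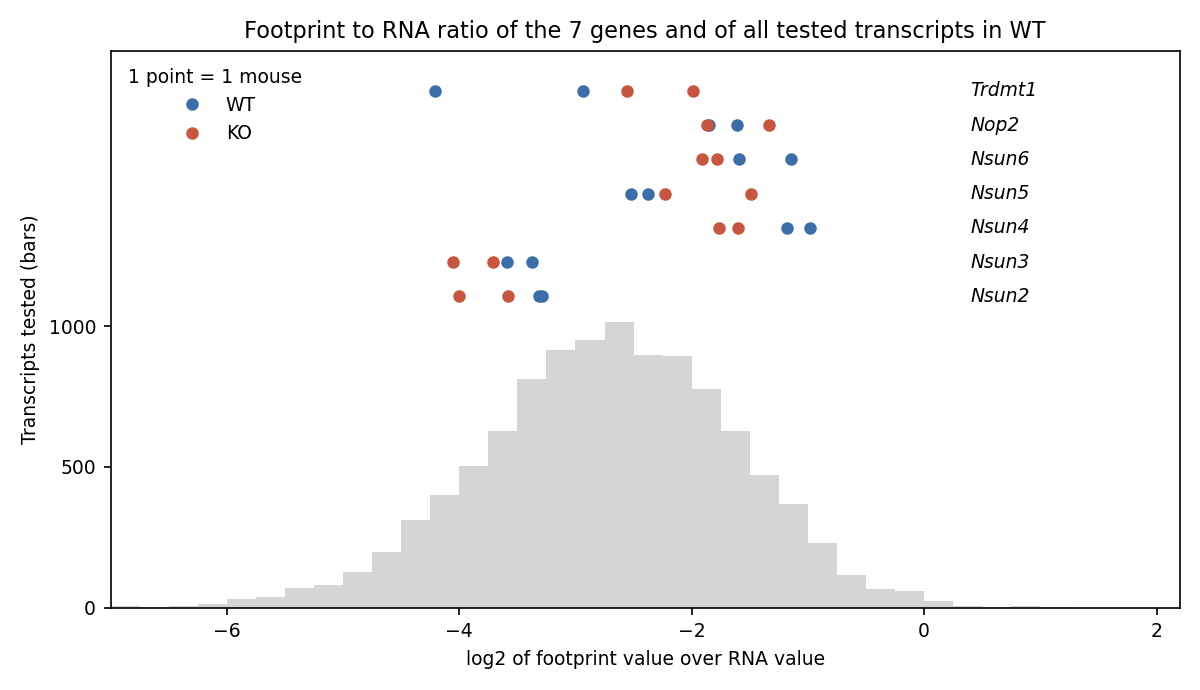
Ratio of footprint to RNA value on a log2 axis, with the gray bars counting all tested transcripts by their WT mean and each point a mouse. WT points of Nsun4 (0.442 and 0.506) and Nsun6 (0.452 and 0.332) lie at the upper end of the gray distribution and those of Nsun2 (0.101 and 0.102) below its middle.

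The 7 genes were also summed within each mouse. Their RNA came to 2005 and 1888 in WT and 1124 and 1171 in KO, and Nsun2 supplied 64.4% and 59.3% of it in WT and 32.2% and 31.4% in KO. Without Nsun2 the sums were 713 and 769 in WT and 761 and 803 in KO, which overlapped. Their footprints came to 313 and 288 in WT and 230.1 and 199.5 in KO, with 41.5% and 39.7% from Nsun2 in WT and 13.2% and 11.5% in KO. Without Nsun2 the footprint sums were 183 and 174 in WT and 199.8 and 177 in KO, which overlapped as well. Nop2 supplied 22.3% and 23.8% of the footprints in WT and 45.9% and 38.5% in KO. That share is taken of a sum that includes Nsun2, so it rises where Nsun2 falls. Nop2 footprints themselves were 69.9 and 68.6 in WT and 106 and 76.8 in KO (limma adjusted p = 0.445). No test was made on the sums or shares, which are not scaled for length.

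**Figure D5:**
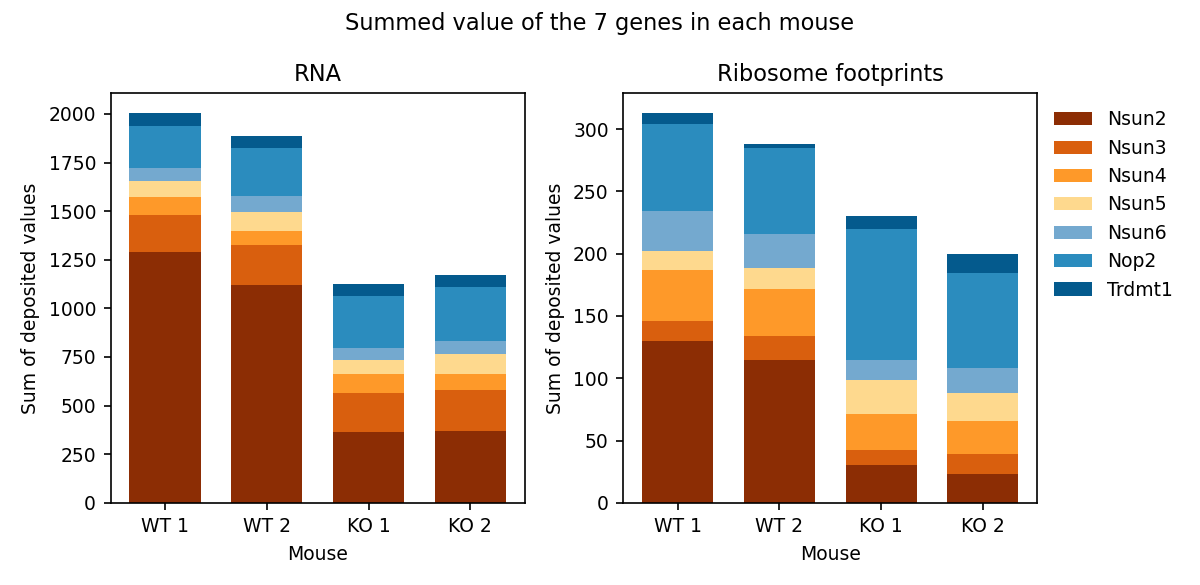
Stacked bars of the deposited values of the 7 genes in each mouse, RNA on the left and footprints on the right, with axes from 0. The RNA total is 2005 and 1888 in WT and 1124 and 1171 in KO, and the dark segment of Nsun2 accounts for 64.4% and 59.3% of it in WT.

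Genes related to these enzymes by function or by fold were read from 5 further lists, of which 34 genes were measured and 31 tested. None passed the test in RNA, footprints or translational efficiency, and their medians were 0.11, 0.06 and 0.04 beside the 0.04, 0.00223 and -0.03 of all transcripts. Of the readers and oxidases of the mark, 5 of 7 were tested. Ybx1, an RNA-binding protein that recognizes 5-methylcytosine, had an RNA difference of -0.01 ± 0.10 (SE) and a footprint difference of 0.23 ± 0.17. Alkbh1, which oxidizes the mark in tRNA, had RNA of 275 and 275 in WT and 193 and 252 in KO (-0.32 ± 0.16, limma adjusted p = 0.270). Tet3, a dioxygenase of methylated cytosine, had an RNA difference of 0.22 ± 0.10 (adjusted p = 0.235).

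The DNA cytosine methyltransferases share the fold of Trdmt1. Dnmt1, which copies methylation after replication, had footprints of 169 and 152 in WT and 199.6 and 190.5 in KO, a difference of 0.28 ± 0.13 (SE, limma unadjusted p = 0.0491, adjusted p = 0.387). An unadjusted footprint p under 0.05 in limma was seen in 12.8% of all transcripts tested. Dnmt3a, which sets methylation anew in neurons, had a footprint difference of 0.29 ± 0.23 (limma adjusted p = 0.636). Uhrf1, the partner of Dnmt1 at replication forks, was below the footprint minimum.

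Qtrt1 and Qtrt2, the subunits of the enzyme that puts queuosine into the anticodon of a few tRNAs, among them the aspartate tRNA that Trdmt1 also modifies, had RNA differences of 0.05 ± 0.29 and 0.02 ± 0.20 (SE). Rnh1, the inhibitor of tRNA-cleaving ribonucleases, had one of 0.12 ± 0.17. Footprint differences were -0.02 ± 0.29 for Qtrt1, 0.45 ± 0.40 for Qtrt2 (limma adjusted p = 0.697) and -0.07 ± 0.16 for Rnh1. In the list of mitochondrial rRNA enzymes 6 genes were tested. Mettl15, which methylates the small-subunit rRNA that Nsun4 acts on, had RNA of 50.9 and 48.8 in WT and 83.1 and 66.7 in KO, with a difference of 0.57 ± 0.23 (SE, limma unadjusted p = 0.0289, adjusted p = 0.184). An unadjusted RNA p under 0.05 in limma was seen in 21.3% of all transcripts tested. Mettl15 footprints, 28.3 and 25.0 in WT and 28.6 and 22.7 in KO, overlapped. Mrm2 and Mrm3, which methylate the large-subunit rRNA of mitochondria, had RNA differences of 0.43 ± 0.28 and 0.29 ± 0.16.

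Of the 15 genes that modify cytosolic rRNA, 12 had a positive RNA difference and 11 a positive footprint difference, with medians of 0.17 and 0.16 and none past the test. Over all transcripts tested 56% had a positive RNA difference and 50.4% a positive footprint difference. Dkc1, the pseudouridine synthase of box H/ACA particles, had RNA of 413 and 425 in WT and 541 and 535 in KO (0.36 ± 0.12, SE, limma adjusted p = 0.112). Its partner Nhp2 had a difference of 0.31 ± 0.12 (adjusted p = 0.180). Gar1, another protein of the same particle, had footprints of 24.8 and 23.8 in WT and 12.1 and 13.0 in KO (-0.90 ± 0.34, adjusted p = 0.290) with RNA that did not follow (0.17 ± 0.17).

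The neighbours of Nsun2 on chromosome 13 were read for a change at the locus. Of the 3 tested genes whose start lay within 500 kb of that of Nsun2, none passed in RNA, footprints or translational efficiency. Tent4a, a poly(A) polymerase 78.2 kb upstream, had an RNA difference of 0.00227 ± 0.12 (SE), Ube2ql1 one of 0.04 ± 0.10 and Med10, a subunit of the Mediator complex, one of 0.28 ± 0.14 (limma adjusted p = 0.257).

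The transcripts whose pattern over the 8 libraries was most like that of Nsun2 were Alox12b, Otof, Tnnc1, Cntnap5b and Matn2. Likeness was the Euclidean distance between log2(value + 1) values, each taken relative to the WT mean of its kind, over 4 RNA and 4 footprint libraries. The distances ran from 0.77 for Alox12b to 1.24 for Matn2, against a median of 3.98 over 10673 transcripts. Otof had RNA of 272 and 236 in WT and 51.0 and 48.1 in KO, and Alox12b of 60.5 and 53.8 in WT and 19.9 and 13.7 in KO. They were chosen for these values, which therefore carry no test.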

How the data were processed

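The 4 cortices gave RNA and footprint libraries. Per the methods of the study, reads were trimmed with cutadapt 3.1, deduplicated with UMI-tools 1.1.1, depleted of rRNA, tRNA and mitochondrial RNA and mapped in the sense direction to the cDNA with the longest coding sequence per gene with Bowtie2 2.4.2 and SAMtools 1.11. The authors corrected footprints for stalling and median-normalized both kinds, and deposited the result as a normalized signal per transcript. Sums over transcripts were 11276296 to 11598214 for RNA and 1299137 to 1325836 for footprints. RNA values were whole multiples of a library's step (tolerance 0.001), at 1125 to 1472 steps for WT Nsun2 and 53 to 77 for Trdmt1. Footprint depth is unknown. Transcripts with a footprint mean of at least 10 over the 4 mice (10674, of which 101 had no annotation) were tested on log2(value + 1), with a pseudocount of 1, in limma 3.58.1 (R 4.3.3, trended variance, all p-values two-sided, Benjamini-Hochberg over all transcripts). Translational efficiency was the genotype by library-kind interaction, with the 2 libraries of a mouse treated as independent. Symbols, lengths and sequences came from GENCODE vM21 and GRCm38. Named genes were all members, genes of the other lists past the threshold or else the 3 with the smallest p, neighbours and the 5 most alike. The remaining astrocyte, microglia and inhibitory neuron markers were given as well. Members and lists were chosen with earlier results of these data known. The fits were run on simulated data with independent noise in every library. Dependence between the libraries of a mouse was therefore not tested. The tRNA tables were not used here.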

Additional observations from a re-analysis of the deposited data

How the results depend on the processing

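Nsun2 was called lower in RNA (-1.82 to -1.61, limma adjusted p up to 0.0460) and in footprints (-2.36 to -1.97, adjusted p up to 0.0245) under all 12 alternatives of each, and uncalled in translational efficiency under all 13. No other member tested was called under any alternative. Nsun5 RNA turned to -0.016 with median log ratio scaling. Leaving out a mouse gave 15 to 258 transcripts lower and 35 to 256 higher in RNA, and 12 to 382 lower and 5 to 166 higher in footprints. Without WT replicate 2 the RNA counts were 15 and 35, and without WT replicate 1 the footprint counts were 382 and 166. The lone mouse is then assumed to vary like the other genotype. Signs near 0 turned, with ranges of -0.074 to 0.25 for Nsun4 RNA, -0.20 to 0.24 for Nsun5 RNA and -0.14 to 0.39 for Nop2 translational efficiency. A footprint minimum of 50 gave 117 lower in RNA and 11 lower and 14 higher in footprints, with fewer transcripts tested. The efficiency ratio per mouse gave 13 lower and 5 higher instead of 0, and the cause was not tested. A replicate block, for numbers that do not pair the mice (correlations of deviations -0.11 and -0.15), gave 2 lower and 4 higher in RNA and 1 lower and 2 higher in footprints. With crossed numbers, chosen after seeing the data, it gave 553 lower and 494 higher in RNA and 298 and 136 in footprints. Per kilobase of coding sequence Nsun2 supplied 50.1% of the summed RNA in WT and 22.7% in KO, and 31.3% and 9.13% of the footprints, instead of 61.9%, 31.8%, 40.6% and 12.4% unscaled. A count test in edgeR was planned for RNA and not run, because whole reads could not be taken as recovered. With 2 mice per genotype and unknown footprint depth, differences of the size seen in Nsun4, Nsun5 and Nsun6 footprints were not resolved.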
